A study of Mus musculus with 67 samples.

Results

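The effect of valproic acid (VPA) added on its own was read from bulk RNA-seq of mouse small-intestinal organoids, as 14 of the 67 samples of the series. The 7 +V samples were grown with 500 µM VPA and without EPZ6438. The 7 NC samples had neither drug. Both groups shared the rest of the 8C medium. It held the small molecules Pexmetinib (1 µM), GSK3iXV (0.1 µM) and LDN193189 (0.2 µM), the growth factors FGF2 (20 ng/mL) and EGF (50 ng/mL), and R-Spondin 1 conditioned medium at 10%. The organoids came from crypts of the proximal small intestine of 6- to 12-week-old mice and were passaged every 7 days. The labels name neither the strain nor the mouse behind a library. The p-values below therefore measure the spread between these samples, which may be separate cultures of few animals. Samples were taken by their condition labels, with the replicate number as a block. The +E group (2 µM EPZ6438 without VPA, 6 samples) and the +VE group (both drugs, 7 samples) serve as comparison. Each library pools the RNA of whole organoids, so fewer cells of a type and less RNA per cell cannot be told apart.

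VPA is a short-chain fatty acid that inhibits class I and class IIa histone deacetylases, the enzymes that take acetyl groups off histone tails. Their inhibition raises histone acetylation, and both activation and repression of genes are known to follow. The crypt epithelium renews from Lgr5+ stem cells, which give rise to absorptive enterocytes and to secretory cells (Paneth, goblet, enteroendocrine and tuft cells).

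The libraries carried the epithelial identity that the labels imply. Epcam, the pan-epithelial adhesion molecule, lay at 1635 to 2050.1 TPM in +V and 1721 to 1898 TPM in NC. TPM scales each library to a fixed sum after division by transcript length, and keeps no record of read number, so the depth is unknown. The 20 immune genes examined summed to 3.82 to 10.6 TPM in +V and 5.26 to 9.55 TPM in NC, and the 15 genes of fibroblasts and smooth muscle to 4.50 to 9.27 TPM and 6.55 to 11.6 TPM. The first principal component (37.2% of the variance) separated replicate numbers 4 to 6 from the others, the second (25.5%) +V from NC, and the third (17.8%) number 7 from the rest. Every +V library correlated best with the NC library of its own number once the group means were removed, with r from 0.65 to 0.78 in the 7 pairs. Both libraries numbered 1 held transcripts of Xist and of the Y-linked Ddx3y, and the NC library held 21.4 TPM of Ddx3y against 4.56 TPM in +V. The part of a mixture of cells of both sexes in any result was not tested. Xist also differed within the pairs of numbers 4 (80.5 TPM in +V and 19.1 TPM in NC) and 5 (75.6 and 37.4 TPM). Without number 1, 4 or 5, 558, 586 or 561 genes were called instead of 565, and 28, 33 or 30 genes of chromosome X were called higher instead of 30.

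The first comparison asks which genes VPA alone changed. With VPA, 408 genes were higher and 157 lower among 12238 tested, so that 3.33% of genes were called higher, 1.28% lower and 4.62% in either direction. Calls needed an adjusted p under 0.05 (limma, Benjamini-Hochberg) and also a 2-fold difference or more on the log2(TPM + 1) scale, which understates the change of low genes. Genes called higher had a median level of 2.24 TPM in NC and 8.67 TPM in +V, and those called lower went from 11.9 TPM to 3.5 TPM, where all tested genes had a median of 23.8 TPM in NC. An NC mean under 1 TPM was seen for 123 of the 408 and for 340 of the 12238 tested. Such genes were tested only because +V was high, and no gene can fall 2-fold on this scale from under 1 TPM, so the levels of the called sets are partly fixed by the minimum and are a description. Changes of at least 4-fold were called for 55 genes upward and 36 downward. Of the 565 called genes, 531 moved the same way in all 7 pairs and 325 had groups that did not overlap (5.21% of all tested genes did not overlap). Both counts come from the samples that made the calls, so they are a description. The median of all tested genes was 0.03 on the log2 scale. Quantile normalization put 317 calls upward and 186 downward, which is 63.0% upward instead of 72.2%.

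**Figure D1:**
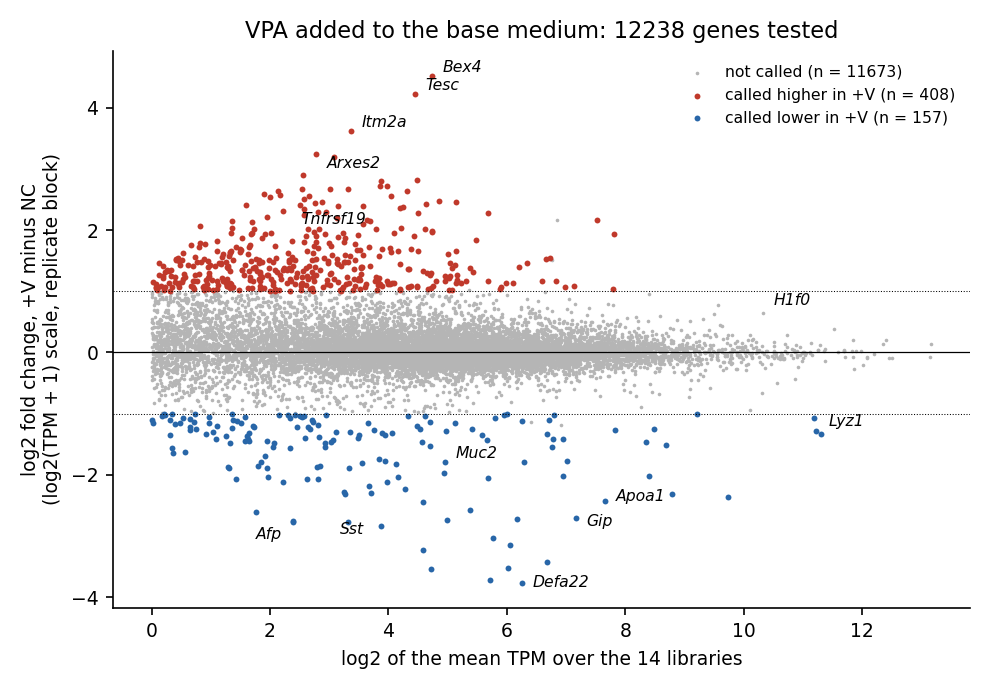
Each point is a gene, with the log2 of its mean TPM over the 14 libraries on the horizontal axis and its log2 fold change (+V minus NC, replicate block) on the vertical axis. Red points are the 408 genes called higher and blue points the 157 called lower, grey points were not called, and dotted lines mark a 2-fold change. The upper cloud reaches Bex4 at 4.52 and the lower cloud Defa22 at -3.76.

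The promoters of 3 genes with large rises and 3 with large falls are shown here, since these genes mark the directions that the values below describe. The windows run from 250 bases before to 50 bases after the start, from RefSeq (GRCm38.p6), 5′ to 3′ on the gene's strand. Capitals mark the GC box GGGCGG and the TATA box TATAAA, searched on both strands, which are held by 35.9% and 14.2% of the 27025 promoters of that table. The windows are chrX:136138746-136139045 (+) for Bex4, chrX:135993570-135993869 (+) for Arxes2, chr5:118027493-118027792 (+) for Tesc, chr8:21162027-21162326 (+) for Defa22, chr11:96024295-96024594 (+) for Gip and chr12:102554691-102554990 (+) for Chga.
Bex4: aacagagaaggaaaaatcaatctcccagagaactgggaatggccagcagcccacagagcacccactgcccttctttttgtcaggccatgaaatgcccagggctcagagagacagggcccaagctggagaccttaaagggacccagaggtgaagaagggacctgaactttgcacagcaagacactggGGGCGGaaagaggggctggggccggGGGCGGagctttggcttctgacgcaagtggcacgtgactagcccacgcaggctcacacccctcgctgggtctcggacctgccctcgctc
Arxes2: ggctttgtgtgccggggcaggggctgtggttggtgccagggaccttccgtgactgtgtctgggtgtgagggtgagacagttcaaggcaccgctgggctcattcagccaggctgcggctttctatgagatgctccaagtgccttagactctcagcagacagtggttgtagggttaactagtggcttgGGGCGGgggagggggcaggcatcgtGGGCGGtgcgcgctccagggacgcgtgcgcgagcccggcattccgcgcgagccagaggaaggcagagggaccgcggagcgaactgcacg
Tesc: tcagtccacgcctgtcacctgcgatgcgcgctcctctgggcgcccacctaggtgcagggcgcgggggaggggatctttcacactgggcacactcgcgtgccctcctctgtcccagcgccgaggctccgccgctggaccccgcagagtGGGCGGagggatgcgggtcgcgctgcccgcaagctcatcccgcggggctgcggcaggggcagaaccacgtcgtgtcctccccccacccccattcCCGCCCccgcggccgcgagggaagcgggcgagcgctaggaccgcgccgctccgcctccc
Defa22: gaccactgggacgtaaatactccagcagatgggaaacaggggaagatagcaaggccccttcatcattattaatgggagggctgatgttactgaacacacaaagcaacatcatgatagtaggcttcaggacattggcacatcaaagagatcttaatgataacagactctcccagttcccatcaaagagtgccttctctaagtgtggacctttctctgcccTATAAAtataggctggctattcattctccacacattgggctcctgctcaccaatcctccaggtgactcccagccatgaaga
Gip: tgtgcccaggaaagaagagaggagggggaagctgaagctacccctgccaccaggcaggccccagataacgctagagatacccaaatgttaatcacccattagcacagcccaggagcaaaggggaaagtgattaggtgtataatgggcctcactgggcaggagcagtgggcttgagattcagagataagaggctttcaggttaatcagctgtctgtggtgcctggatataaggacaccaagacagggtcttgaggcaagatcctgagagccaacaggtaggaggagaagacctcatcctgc
Chga: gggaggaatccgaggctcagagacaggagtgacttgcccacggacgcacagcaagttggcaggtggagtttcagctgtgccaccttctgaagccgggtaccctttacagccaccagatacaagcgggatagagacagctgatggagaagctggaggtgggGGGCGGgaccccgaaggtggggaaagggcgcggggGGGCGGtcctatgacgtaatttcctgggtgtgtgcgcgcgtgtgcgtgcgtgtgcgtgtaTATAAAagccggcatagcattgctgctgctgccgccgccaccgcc
Bex4 and Arxes2, which are neighbours on chromosome X, each carried 2 GC boxes, with first bases 64 and 39 bases before the start in both. Tesc held 2 GC boxes and 36 CpG dinucleotides, where the median of all promoters was 7. Defa22 had a TATA box 31 bases before the start, no GC box and 1 CpG. Gip had neither motif and 1 CpG. Chga held 2 GC boxes before the start, the letters TATAAA 5 bases after it and 21 CpG. RefSeq windows matched 304 of the genes called higher (74.5%) and 116 of those called lower (73.9%), under the 80% needed, so the sets were not compared by sequence.

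The largest rise was that of Bex4, a member of the brain-expressed X-linked family of small adaptor proteins. It lies on chromosome X at 136138996 to 136140443. Bex4 was at 31.6, 55.7 and 62.5 TPM in +V (lowest, median and highest) and at 0, 1.05 and 5.12 TPM in NC. The 7 +V libraries all lay above the NC libraries. The log2 fold change was 4.52 ± 0.33 (SE, n = 7 pairs, limma adjusted p = 1.6e-05), or 22.9-fold.

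Tesc, which encodes the calcium-binding protein tescalcin, followed. Its level was 24.8, 48.7 and 60.4 TPM in +V and 0.352, 1.14 and 2.96 TPM in NC. No libraries overlapped, and the 7 pairs agreed closely, with a log2 fold change of 4.22 ± 0.10 (SE, n = 7 pairs, limma adjusted p = 4.4e-09). Itm2a, a type II membrane protein gene on chromosome X, stood at 8.12, 22.5 and 27.7 TPM in +V and at 0.126, 0.39 and 1.84 TPM in NC. That is a log2 fold change of 3.62 ± 0.17. The lowest +V value of Itm2a came from replicate 7.

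Arxes2 (3.25), the RNA-binding protein gene Rbpms (3.19), the collagen lysyl hydroxylase gene Plod2 (2.82), Tmeff1 (2.80) and the LIM protein gene Crip2 (2.72) were also among the 10 largest rises of genes without overlap between groups. Ldhb, the H subunit of lactate dehydrogenase, went from a median of 1.07 TPM to 13.3 TPM (log2 fold change 2.66 ± 0.12), while the 12 genes of lactate dehydrogenases and carriers held no other called member among the 7 tested.

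**Figure D2:**
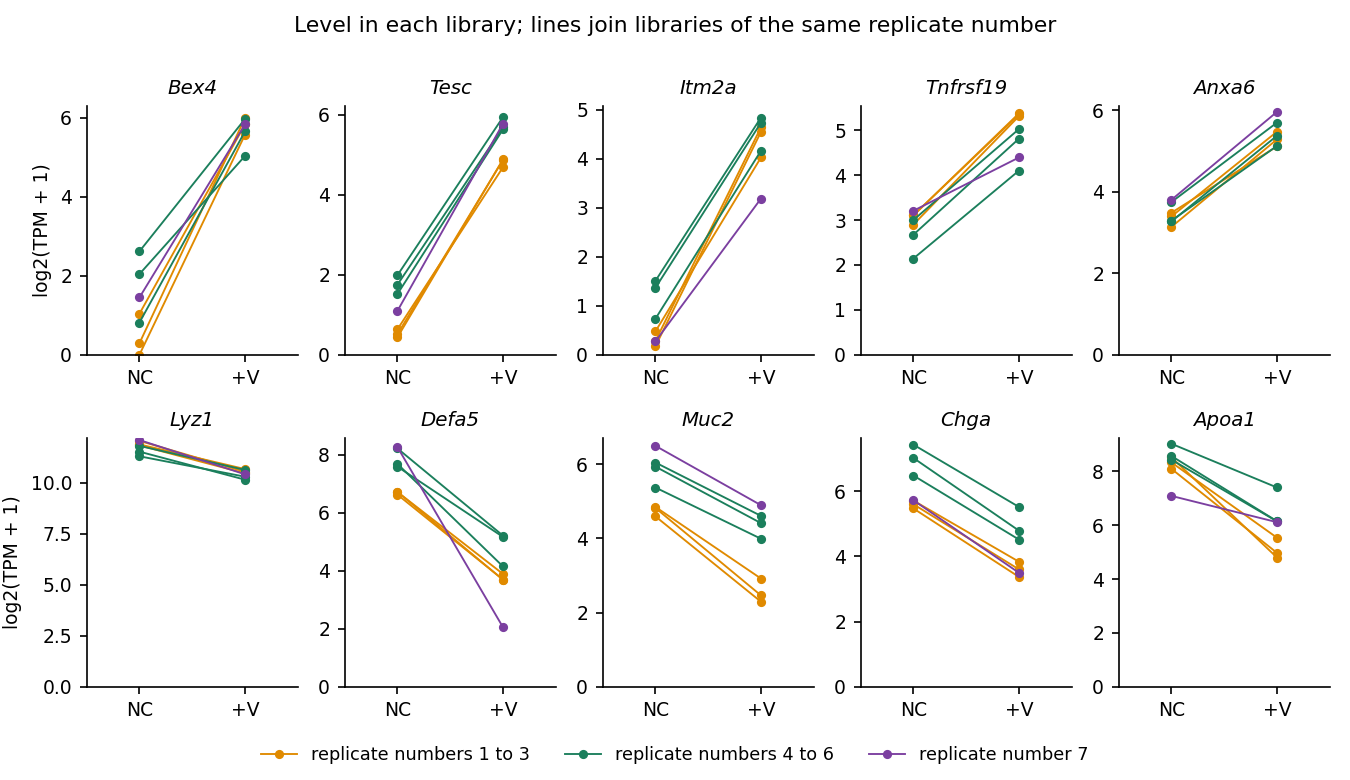
Each panel gives the level of a gene in log2(TPM + 1), for NC on the left and +V on the right, and lines join libraries of the same replicate number (orange 1 to 3, green 4 to 6, purple 7). All 7 lines rise for Bex4, Tesc, Itm2a, Tnfrsf19 and Anxa6 and fall for Lyz1, Defa5, Muc2, Chga and Apoa1, and the groups overlap for Muc2, Chga and Apoa1.

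Chromosome X held several of the largest rises. There 30 of 359 tested genes were called higher (8.36%, beside 3.33% of all tested) and 2 lower. This is a description and was not tested. Beside Bex4, Itm2a and Arxes2, they include the glypican gene Gpc3 (10.7 TPM in NC and 60.2 TPM in +V on average, log2 fold change 2.46), the kinase gene Stk26 (2.46), Bex1 (2.37), Armcx3 (2.30), Tceal8 (1.51), Armcx6 (1.42), Bhlhb9 (1.27) and the filamin gene Flna (1.03). The 2 that fell were S100g (-2.02), which encodes the intestinal calcium-binding protein calbindin-D9k, and 2010106E10Rik (-1.74). Without the replicate block S100g (adjusted p = 0.052 by limma) and Tceal8 (adjusted p = 0.092) were not called, and Flna was just under the limit without number 2. The remaining chromosomes ranged from 1.58% (chromosome 19) to 4.93% (chromosome 15) called higher. Of the 7 Bex and Arxes genes, 5 were tested and 4 were called higher, with a median log2 fold change of 2.37. This list was chosen with earlier results of these data known, so its share and median are a description. Bex2 was called at 1.03 and missed the limit with quantile normalization (0.94) and without number 1, 2 or 6 (1.00, 0.99 and 0.97), which left 3 calls. Bex3 was at 196 to 390 TPM in +V and 130 to 206 TPM in NC, a log2 difference of 0.77 that missed the 2-fold limit. Xist, the RNA that silences an X chromosome in female cells, was not called (log2 difference 0.61, adjusted p = 0.097).

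Paneth cells guard the crypt base with antimicrobial peptides, and their genes made up the deepest falls. Of 20 Paneth genes tested, 13 were called lower and 0 higher (1.28% of all genes were called lower), with a median log2 fold change of -1.33 beside 0.03 for all genes. The summed level of the list was 4251 to 9880.3 TPM in +V and 11419.6 to 19978 TPM in NC, without overlap. Of the 13, 8 are Defa genes, which encode α-defensins. Over the whole table, 17 Defa genes were tested, most of them outside the list, and all 17 were called lower. Log2 fold changes of these genes ran from -3.76 to -1.11. Their sum had a median of 1461 TPM in +V (1269.7 to 3879.97) and 6278 TPM in NC (4298 to 10337). Without the replicate block, Defa35 (-1.11) was not called (limma adjusted p = 0.088). Single Defa genes are near-identical copies whose reads the counting could split, so that the value of any one is uncertain.

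Defa22 was at 0, 6.83 and 31.6 TPM in +V and at 49.5, 129 and 331 TPM in NC. The groups did not overlap, and the log2 fold change was -3.76 ± 0.51 (SE, n = 7 pairs, limma adjusted p = 0.00086). The pairs of numbers 1 to 3 and of 4 to 6 gave -3.40 and -3.03, and number 7, where +V was listed at 0, gave -7.02. Defa5 fell by 3.43 on the log2 scale, from 97.9, 192 and 308 TPM to 3.14, 13.8 and 36.0 TPM. Lyz1, the Paneth cell lysozyme, is far more abundant and moved less. Its level was 1141 to 1639.7 TPM in +V and 2533 to 4403 TPM in NC, again without overlap, and its log2 fold change was -1.33 ± 0.07 (SE, n = 7 pairs, limma adjusted p = 9.3e-07). Among the Paneth markers that fell were also the mucosal pentraxin genes Mptx2 (-3.23) and Mptx1 (-3.03) and the intelectin gene Itln1 (-1.07), and Ang4 (-0.73) missed the 2-fold limit. Mptx1 was not called without the block (adjusted p = 0.15 by limma) and Itln1 not without number 2 (-0.96).

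Goblet cells make the mucus layer. Of 18 goblet genes tested, 8 were called lower (1.28% of all tested genes were) and 0 higher, with a median of -0.92. Muc2, the gel-forming mucin, was at 3.90, 14.9 and 28.8 TPM in +V and at 23.2, 40.5 and 89.6 TPM in NC. All 7 pairs fell although the groups overlap, and the log2 fold change was -1.79 ± 0.13 (SE, n = 7 pairs, limma adjusted p = 4.8e-06). The lectin gene Zg16 (-2.72), the mucus protein gene Clca1 (-2.57) and Fcgbp (-1.27) also fell. With replicate numbers 1 to 3 only, Zg16 was not called (-2.95, limma adjusted p = 0.065). The general secretory genes Tff3 (-0.50) and Agr2 (-0.38), which stayed abundant at medians of 1300.4 and 562 TPM with VPA, missed the 2-fold limit. Spdef and Atoh1, transcription factors of the secretory lineage, did not overlap between groups. Spdef was at 10.8 to 20.2 TPM in +V against 22.9 to 48.7 TPM in NC and Atoh1 at 6.06 to 11.4 TPM against 12.4 to 25.4 TPM, and their log2 differences of -0.96 and -0.88 missed the limit narrowly.

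Enteroendocrine cells secrete gut hormones. Of 25 genes of these cells tested, 9 were called lower (1.28% of all tested genes were) and 0 higher, with a median of -0.49. Of these 9, 7 are hormones and the others are the granule protein gene Chga and the enzyme gene Tph1. Chga, the granule protein chromogranin A, was at 9.34, 13.3 and 44.8 TPM in +V and at 43.4, 51.8 and 172 TPM in NC. Each of the 7 pairs fell by a like amount, and the log2 fold change was -2.05 ± 0.06 (SE, n = 7 pairs, limma adjusted p = 2.2e-08). Sst (somatostatin) was at 0, 1.13 and 10.0 TPM in +V and at 6.29, 12.4 and 93.1 TPM in NC, with a log2 fold change of -2.83 ± 0.23. Gip, the incretin hormone of K cells, went from 93.1, 153 and 539 TPM to 10.9, 31.3 and 106 TPM (-2.70 ± 0.24). With replicate numbers 1 to 3 only, Gip was not called (-2.42, limma adjusted p = 0.063).

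Further falls among the hormones were those of Gcg, the precursor of glucagon and GLP-1 (-2.22), Pyy (-1.78), Ghrl (-1.26), Nts (-1.06) and Cck (-1.03). Nts lost its call without the block (adjusted p = 0.31 by limma) and without number 2, 4, 5, 6 or 7 (adjusted p = 0.062 to 0.079), Ghrl without the block (adjusted p = 0.17), and Cck stood under the limit without number 4, 5 or 6 (-0.97, -0.89 and -0.90). Tph1, the enzyme that starts serotonin synthesis, fell by 1.40 without overlap. Neurog3, the transcription factor that starts the endocrine programme, was not lower. It stood at 27.2, 54.5 and 65.8 TPM in +V and 11.9, 28.7 and 44.9 TPM in NC, higher in 7 of 7 pairs with a log2 difference of 0.78 ± 0.13 that missed the 2-fold limit. Neurod1, which acts after it, differed by -0.06 (adjusted p = 0.71). With replicate numbers 1 to 3 only, 3 of 24 enteroendocrine genes were called lower, against 9 of 25 with numbers 4 to 6 only and 7 to 9 when a single number was left out. With numbers 4 to 6 only or 4 to 7 only, 1 was called higher.

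**Figure D3:**
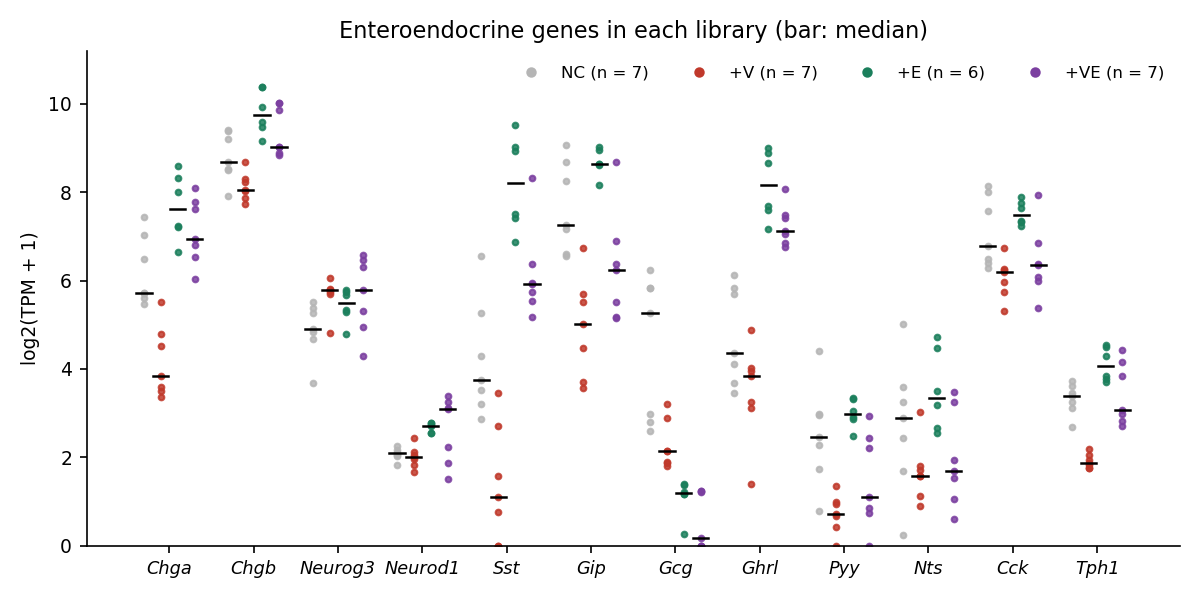
Points are libraries of NC (grey), +V (red), +E (green) and +VE (purple), the vertical axis is log2(TPM + 1), and black bars are medians. Chga and the hormones Sst and Gip have lower medians in +V than in NC and higher ones in +E, while Neurog3 has a higher median in +V.

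Tuft cells are rare chemosensory cells, and 9 of their 18 genes passed the minimum of 1 TPM. Of these, 4 were called lower (1.28% of all tested genes were) and 0 higher, and the median was -0.75. Among the 4 were Rgs13 (-1.14), Sh2d6 (-1.11) and Avil (-1.0). With a minimum mean of 5 TPM, 3 genes were tested, 0 were called and the median was 0.33. Avil stood under the limit without number 2, 4 or 6 (-0.96, -0.99 and -0.98). Pou2f3, the factor that specifies tuft cells, differed by 0.33. Levels of these genes were low, as Sh2d6 was at 0.11 to 0.34 TPM in +V and 0.506 to 5.41 TPM in NC. Without number 4, 2 of 8 tested tuft genes were called lower, without number 6, 2 of 9, and with numbers 1 to 3 only, 0 of 6.

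Absorptive enterocytes take up nutrients. Of 27 enterocyte genes tested, 8 were called lower (1.28% of all tested genes were) and 0 higher, at a median of -0.66. The median enterocyte gene was lower in 6 pairs (-1.11 to -0.23) and higher in number 7 (0.34), where the summed level of the list was 8373 TPM in +V and 6215 TPM in NC. With numbers 4 to 7 only, 5 genes were called lower and the median was -0.25. Apoa1, the main protein of high-density lipoprotein, was at 26.9, 68.3 and 168 TPM in +V and at 135, 346 and 522 TPM in NC (log2 fold change -2.42 ± 0.30). Cyp3a11 (-2.19), Apoc3 (-2.04), the trehalase gene Treh (-1.82), Apoa4 (-1.77), Anpep (-1.02) and the glucose transporter gene Slc2a2 (-1.01) fell with it. Anpep stood under the limit without number 4, 5 or 6 (-0.97, -0.95 and -0.93) and Slc2a2 without number 1, 2, 3 or 6 (-0.99, -0.92, -0.89 and -0.93). Without number 6, 5 enterocyte genes were called lower instead of 8, and without number 7, 11. Alpi, the intestinal alkaline phosphatase, fell by 1.25 with an adjusted p of 0.046. That call was lost without number 1, 2, 3, 5 or 6, where limma gave adjusted p-values of 0.061 to 0.12, and kept without number 4 or 7. The abundant Fabp1, a fatty acid-binding protein, was at 728 to 2076 TPM in +V and 512 to 1687 TPM in NC, with a log2 difference of -0.06 ± 0.27 (adjusted p = 0.88) whose sign changed with the libraries used. Afp (α-fetoprotein), which no list held, was among the 10 largest falls of genes whose groups did not overlap, predicted genes left out. Afp was at 0, 0.19 and 1.19 TPM in +V and at 2.58, 6.72 and 19.4 TPM in NC (-2.78 ± 0.19). The pancreatic protease gene Ctrb1 (-2.60) and Khdc1a (-2.76) also belong to these 10, and the other 7 are Defa genes. Sst, Zg16, Gip, Mptx1 and Mptx2 fell by more than Ctrb1 and are not among the 10, which leave out overlapping groups.

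**Figure D4:**
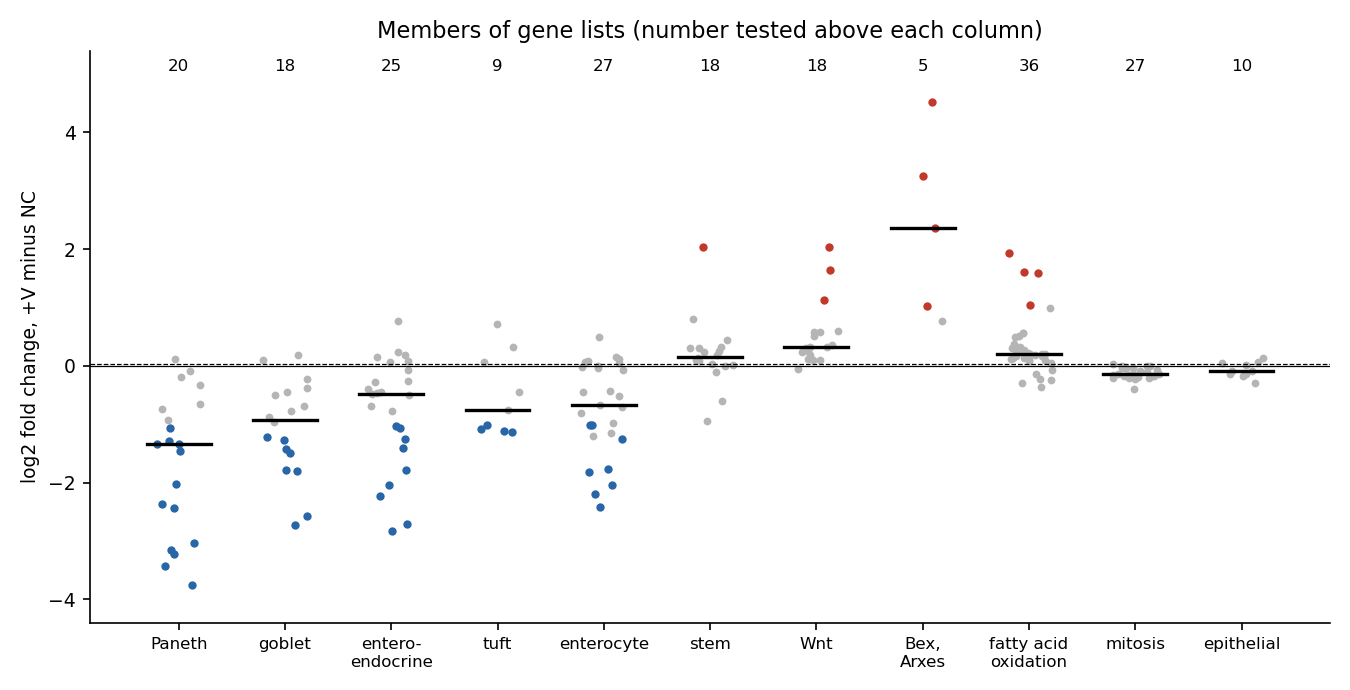
Each point is a tested member of a gene list, the vertical axis is its log2 fold change (+V minus NC), black bars are medians, and the dashed line is the median of all genes (0.03). Red members were called higher and blue ones lower. The 5 differentiated lineages on the left have medians between -1.33 and -0.49 and no red member, and the Bex and Arxes genes lie highest with a median of 2.37. The lists were chosen with earlier results of these data known.

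Of 18 crypt base stem cell markers tested, 1 was called higher (3.33% of all tested genes were) and 0 lower. Without the 2-fold limit, 8 were higher and 2 lower at an adjusted p under 0.05, as were 23.2% and 12.5% of all tested genes. The called one was Tnfrsf19 (TROY), a Wnt target and marker of stem cells, at 16.2, 31.7 and 40.6 TPM in +V and 3.42, 7.01 and 8.24 TPM in NC. Its groups did not overlap and its log2 fold change was 2.04 ± 0.13 (SE, n = 7 pairs, limma adjusted p = 1.8e-06). Lgr5, the R-spondin receptor that marks cycling stem cells, was at 55.9, 72.2 and 84.3 TPM in +V and 45.5, 55.9 and 74.4 TPM in NC. It was higher in 7 of 7 pairs by 0.32 (adjusted p = 0.0078), under the 2-fold limit. Olfm4 went the other way, lower in 7 of 7 pairs by 0.94 (adjusted p = 0.020), and passed the limit without number 1, 3 or 6, and Ascl2 differed by 0.19 (adjusted p = 0.095).

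Wnt targets and feedback genes form the next list. Of 18 tested, 3 were called higher (3.33% of all tested genes were) and 0 lower. A positive difference was seen for 17 (55.5% of all tested genes had one), with a median of 0.32 over the list. The called members were Tnfrsf19, the Wnt inhibitor gene Apcdd1 (1.64, from a median of 6.44 TPM to 24.1 TPM) and the feedback inhibitor gene Nkd1 (1.13), which missed the limit with quantile normalization (0.96). Axin2, a feedback gene used widely as a read-out of the pathway, differed by 0.11 (adjusted p = 0.43). Without the 2-fold limit, 13 of the 18 were higher at an adjusted p under 0.05 and 0 were lower. Over all tested genes, 23.2% were higher and 12.5% lower at that threshold. Spred3 (1.0) was the called member among 16 ERK feedback genes, and fell under the limit without number 4 (0.97), with quantile normalization (0.88) and, narrowly, with scaling to the 75th percentile. Notch pathway genes had 1 called member among 16 tested, the receptor gene Notch3 (1.38).

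The drug's own target enzymes did not pass the limits. None of 10 histone deacetylase genes tested was called, and none of 12 genes of acetyltransferases and BET readers or of 12 PRC2 subunits. By limma, Hdac1 was 0.35 higher on the log2 scale (adjusted p = 8e-05, 7 of 7 pairs) and Hdac3 0.23 higher (adjusted p = 0.0015), while Hdac2 differed by 0.01. All 12 acetyltransferase and BET reader genes had a negative difference, with a median of -0.19, where 55.5% of all tested genes had a positive one. Of the 12, 5 were lower at an adjusted p under 0.05, beside 12.5% of all tested genes. H1f0, the linker histone H1.0 that deacetylase inhibitors are known to raise, was at 1345 to 1709.9 TPM in +V and 857 to 1199.6 TPM in NC. These groups did not overlap, and the log2 difference of 0.64 ± 0.07 stayed under the 2-fold limit (adjusted p = 6e-05). Of 18 genes known to respond to deacetylase inhibitors, 1 was called higher (3.33% of all tested genes were) and 0 lower. It was the imprinted CDK inhibitor gene Cdkn1c (1.04, from a median of 5.67 TPM to 13.0 TPM). That call was lost with quantile normalization (0.92) and with numbers 4 to 7 only (0.97). Cdkn1a (p21), a classical member of that list, was higher in 7 of 7 pairs by 0.36 (adjusted p = 0.0013), also under the limit.

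Cell cycle genes were not called. None of 30 replication and S phase genes and none of 27 mitosis genes was called. A negative difference was seen for 27 and 25 of them, with medians of -0.21 and -0.14, where 55.5% of all tested genes had a positive one. On the lists, 5 and 1 genes were lower at an adjusted p under 0.05, beside 12.5% of all tested genes. The direction differed by pair. The median replication gene was lower in the pairs of numbers 1 to 3 (-0.24, -0.32 and -0.16) and in number 7 (-1.0), and stood at 0.10, -0.01 and 0.15 in numbers 4 to 6. The median mitosis gene differed by -0.98 in number 7 and by -0.14 to 0.34 in the others. The summed level of the replication genes was 1196 TPM in +V replicate 7, against 2662 to 3959 TPM in the other +V libraries and 2371 TPM in NC replicate 7. Without number 7, 22 replication genes and 12 mitosis genes had a negative difference, with medians of -0.08 and 0.02. Mki67, the proliferation antigen, was at 92.1 to 165 TPM in +V and 67.4 to 170 TPM in NC (0.03, adjusted p = 0.86). None of 23 p53 targets, 16 BCL2 family genes, 20 intestinal transcription factors or 9 Hox genes tested was called.

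VPA is itself a fatty acid, and genes of fatty acid oxidation and ketogenesis and targets of the lipid sensor PPAR were examined. Of 36 tested, 4 were called higher (3.33% of all tested genes were) and 0 lower, 30 had a positive difference (55.5% of all tested genes did), and the median was 0.21. Pdk4, a kinase that restrains the use of pyruvate, was at 1.97, 5.88 and 38.9 TPM in +V and at 0.309, 0.904 and 9.52 TPM in NC. The groups overlapped, all 7 pairs rose, and the log2 fold change was 1.59 ± 0.20 (SE, n = 7 pairs, limma adjusted p = 0.00017). Angptl4, a lipase inhibitor and known PPAR target, was at 23.1, 32.2 and 48.0 TPM in +V and at 9.79, 17.6 and 22.5 TPM in NC. Its groups did not overlap, and its log2 fold change was 1.05 ± 0.12. Cyp4a10, also a known PPAR target, rose by 1.61. Its 3 pairs of numbers 1 to 3 gave 1.11, -0.36 and 0.03, and the pairs of numbers 4 to 7 gave 2.26 to 3.10. Without the replicate block the calls of Pdk4 (adjusted p = 0.22 by limma) and Cyp4a10 (adjusted p = 0.056) were lost and 1 call was left on the list. Without number 7, Cyp4a10 (adjusted p = 0.051) and Angptl4 lost theirs and 2 calls were left. Angptl4 stood under the 2-fold limit without number 5, 6 or 7 (0.98, 0.99 and 0.99) and with numbers 1 to 3 only (0.70). Acadl (0.51) and Cpt1a (0.30), enzymes of β-oxidation, passed the adjusted p but not the 2-fold limit. None of 27 genes of cholesterol and fatty acid synthesis was called.

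Of 4 markers of regeneration followed by name, none was called with VPA alone. Clu, the revival stem cell marker, was at 6.51, 17.8 and 85.4 TPM in +V and 7.05, 26.8 and 119 TPM in NC (-0.44, adjusted p = 0.090). Anxa1 differed by 0.37 (adjusted p = 0.22) and Ly6a (Sca1) by 0.42 (adjusted p = 0.26). For Ly6a the sign changed with the numbers used, as numbers 1 to 3 alone gave -0.45 with an adjusted p of 0.0011. Reg3b, an antimicrobial lectin, ranged widely, at 6.44, 183 and 565 TPM in +V and 3.17, 9.05 and 70.4 TPM in NC. Its log2 difference of 2.16 ± 0.82 did not pass (adjusted p = 0.077), and Reg3g was alike (1.51 ± 0.55, adjusted p = 0.067). Without number 7 the differences were 1.34 and 0.97. Of 5 Reg lectin genes tested, Reg3a (-1.31) and Reg4 (-1.0) were called lower, beside 1.28% of all tested genes. Reg3a was not called without number 1 or 5 (limma adjusted p = 0.068 and 0.057). Reg4 stood just under the 2-fold limit without number 1, 5, 6 or 7 (-1.0, -0.98, -1.0 and -0.97), and without the replicate block its adjusted p was 0.068.

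Of 53 tested genes that the study lists as raised in the injury-associated signature, 3 were called higher and 3 lower, where 3.33% of all tested genes were called higher and 1.28% lower. The higher ones were the antigen presentation genes H2-Ab1 (1.97) and H2-Q7 (1.44) and Eif4e3 (1.41). The lower ones were the oxidase gene Duox2 (-1.38), the gene of its maturation factor, Duoxa2 (-1.18), and the actin-capping gene Capg (-1.03). Of 52 genes listed as lowered, 1 was higher (Gng11, 1.42) and 4 lower, namely the amine oxidase gene Aoc1, Itln1, Ces1f (-1.53) and Ccl6 (-1.47). Per its methods, the study built this signature from published data on injured intestine in vivo, not from these libraries. Fetal-like and revival markers had 1 call in each direction among 20 tested, the alarmin gene Il33 (1.35) upward and Msln (-1.04) downward, and Msln lost its call without the block (adjusted p = 0.38) and without number 1, 2, 3 or 7. Without the block Duox2, Duoxa2, Ces1f and Aoc1 were not called either (adjusted p = 0.11, 0.10, 0.10 and 0.30 by limma). Capg stood under the limit without number 1, 2 or 3 (-0.98, -0.92 and -0.89), and Gng11 with numbers 4 to 7 only (0.85) or 4 to 6 only (0.84).

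Anxa6, an annexin and the called member among 10 tested of that family of membrane-binding proteins, was at 33.7, 40.6 and 61.4 TPM in +V and 7.80, 9.52 and 13.0 TPM in NC, with a log2 fold change of 1.99 ± 0.07 (SE, n = 7 pairs, limma adjusted p = 8.9e-08). The Hippo pathway restrains YAP and TAZ, coactivators of TEAD factors that promote growth. Among 19 Hippo genes and TEAD factors, 3 were called higher (3.33% of all tested genes were) and 0 lower, and the median of the list was 0.03, as for all genes. Wwtr1, which encodes TAZ, the paralogue of YAP, went from a median of 6.08 TPM to 24.7 TPM (1.71 ± 0.17). Tead2 went from 7.62 TPM to 28.0 TPM (1.65 ± 0.11) and Amotl1 from 0.59 TPM to 3.12 TPM (1.66 ± 0.22), all 3 without overlap. Yap1 (-0.07) and Tead1 (0.16) were not called. Of 8 YAP target genes tested, 2 were called higher (Anxa6 and Il33) and 0 lower. Of these 8, 7 had a positive difference (55.5% of all tested genes did), with a median of 0.37.

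Shares called higher were 21.4% of interferon-stimulated, 17.6% of neuronal, 18.2% of imprinted and 11.8% of integrin and laminin genes, beside 3.33% of all tested genes, in lists of 11 to 17 tested members. Of 14 interferon-stimulated genes tested, 3 were called higher (Ifit2 1.25, Bst2 1.17, Ifi27 1.16) and 0 lower. Ifi27 was not called without the block (adjusted p = 0.21 by limma) or without number 7 (0.94). Bst2 (tetherin) was at 133 to 202 TPM in +V and 56.8 to 79.4 TPM in NC. Ctss, the protease that trims the class II invariant chain, fell by 1.43 without overlap, from a median of 70.3 TPM to 26.5 TPM, whereas the class II gene H2-Ab1 rose. Of 17 neuronal genes tested, 3 were called higher, the collapsin response mediators Dpysl3 (2.20) and Dpysl5 (1.97) and the neurofilament gene Nefl (1.09, and 0.89 with quantile normalization), and 23 of the 40 on the list were under the minimum. Only 1 of 11 defining genes of enteric neurons and glia passed the minimum, and that list summed to 3.20 to 8.73 TPM in +V and 2.25 to 4.76 TPM in NC. Sox10, Hand2 and Fabp7 were at 0 in all 14 libraries. Of the imprinted genes, Cdkn1c and Peg12 (1.09) were called higher among 11 tested, and of the integrins and laminins Itgb5 (1.02) and Lama5 (1.01) among 17. These stood near the limit, and with quantile normalization all 3 of Peg12 (0.97), Itgb5 (1.0) and Lama5 (0.92) missed it. Peg12 also missed it without number 1 (0.98), Itgb5 without number 2 (0.92) and Lama5 without number 4, 5 or 6 (0.96, 0.98 and 0.99). Esam was the called gene of the endothelial list (1.11, from a median of 8.95 TPM to 20.1 TPM), of which 2 of 12 genes passed the minimum and Cldn5 and Emcn were at 0. The endothelial list summed to 23 to 50.2 TPM in +V and 13.3 to 39.6 TPM in NC, and its part in the rise of Esam was not tested.

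The VPA step was also made where EPZ6438, an inhibitor of the H3K27 methyltransferase EZH2, was present (+VE minus +E). Those libraries are not used in the comparison above, though replicate numbers are shared. There 700 of 12723 tested genes were called (5.5%), 534 higher (4.2%) and 166 lower (1.3%). Of the 408 genes called higher without EPZ6438, 406 were tested, 246 were called higher again and 0 lower, with a median log2 fold change of 1.14. Of the 157 lower genes, 146 were tested, 104 were called lower again and 0 higher, with a median of -1.48. Both shares lie above the 4.2% and 1.3% of all genes. Tesc (3.56), Itm2a (3.11), Crip2 (2.97), Tnfrsf19 (1.74) and Anxa6 (2.02) rose again, and Lyz1 (-1.80), Muc2 (-1.47), Gip (-2.26), Zg16 (-3.21) and Apoa1 (-3.08) fell again. By lists, 14 of 20 Paneth, 7 of 18 goblet, 4 of 25 enteroendocrine, 5 of 11 tuft and 13 of 28 enterocyte genes were called lower there. Of these lists, only the Paneth list had a member called higher there, Sntb1 (2.57).

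**Figure D5:**
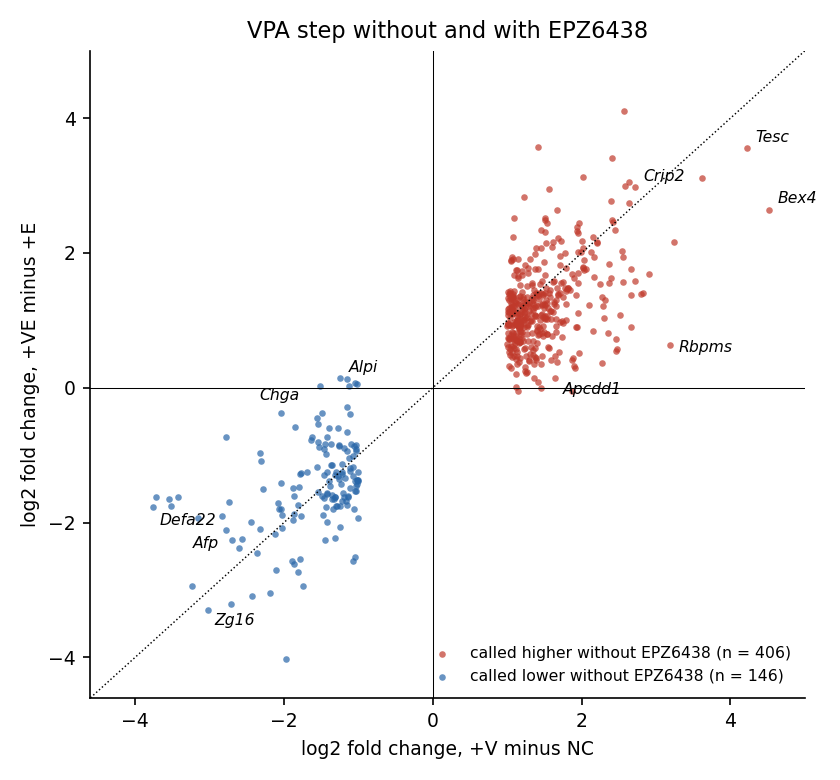
Each point is a gene called in +V minus NC, with that log2 fold change on the horizontal axis and the log2 fold change of +VE minus +E on the vertical axis, and the dotted line marks equal values. Of the 406 red genes 404 lie above 0 on the vertical axis and of the 146 blue genes 140 lie below it.

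Whether EPZ6438 changed the size of the VPA step was tested by an interaction term over 27 libraries. It called 127 of 12556 genes (1.01%), 85 of them higher (0.677%) and 42 lower (0.335%), where higher means a larger value of the step with EPZ6438. With a pseudocount of 0.1 the split turned to 30 higher and 73 lower. Without the replicate block 73 genes were called, 55 higher and 18 lower. Of the 408 genes that VPA alone raised, 34 had a called negative interaction and 6 a positive one. The interaction uses the same +V and NC libraries that chose these genes, so these counts are a description. Bex4 rose by 2.64 with EPZ6438 and by 4.52 without it (interaction -2.0 ± 0.41, limma adjusted p = 0.0099), and its medians were 1.05 TPM in NC, 55.7 TPM in +V, 74.3 TPM in +E and 471 TPM in +VE. Rbpms rose by 3.19 without EPZ6438 and differed by 0.63 with it (interaction -2.55). For Apcdd1 the values were 1.64 and 0.15 (interaction -1.49). Olfm4 moved in the opposite manner, lower by 0.94 without EPZ6438 and by 4.37 with it (interaction -3.29). None of the lists of Paneth, goblet, enteroendocrine, tuft, enterocyte or stem cell genes had more than 1 member with a called interaction. Ifitm1 (3.38) and Fn1 (2.53), the largest positive interactions, were under the minimum in +V and NC, with medians of 0.282 and 0.35 TPM in +V.

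VPA alone and EPZ6438 alone were compared directly (+V minus +E), over 12428 genes. Of these 458 were called (3.69%), 128 higher in +V (1.03%) and 330 lower (2.66%). Of 26 enteroendocrine genes tested, 19 were called lower in +V and 1 higher. Sst had a median of 1.13 TPM in +V and 335 TPM in +E (log2 fold change -6.61), Ghrl differed by -4.32, Gip by -3.51 and Chga by -3.39. Afp was at a median of 0.19 TPM in +V and 59.0 TPM in +E (-5.37). Gcg was the exception, higher in +V by 1.03. The log2 fold changes of Reg3b and Reg3g were -2.27 and -1.63. Tesc was higher in +V by 2.96, Dpysl3 by 2.02 and Tnfrsf19 by 1.76.

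The comparison of +E with NC shares the NC libraries, so values are only set side by side. Its values rest on the pairs of numbers 1 to 6, as +E has no replicate 7, and the VPA values on numbers 1 to 7. The comparison of +E with NC called 468 of 12263 genes (3.82%), 427 higher (3.48%) and 41 lower (0.334%). Bex4 rose by 5.12 with EPZ6438 and by 4.52 with VPA, Arxes2 by 3.29 and 3.25, Rbpms by 3.23 and 3.19, and Ldhb by 4.30 and 2.66. Sst rose by 3.89 with EPZ6438 and fell by 2.83 with VPA. Afp rose by 2.44 and fell by 2.78, Chga rose by 1.38 and fell by 2.05, and Ghrl rose by 3.20 and fell by 1.26. Gcg fell with both, by 3.12 and 2.22. Tnfrsf19 was not called with EPZ6438 (0.41) and neither was Dpysl3 (0.07).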

How the data were processed

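Per the labels, libraries were made with the NEBNext Ultra kit and sequenced as paired ends of 150 bases. The submitters' processing notes name Trimmomatic 0.39, STAR 2.7.3a, featureCounts and the build mm10. The authors deposited the values as TPM in a table of 29579 genes, and how counts became TPM and whether strand was used are not given in the sources used here. Column sums were 986768 to 988066 TPM in the 14 libraries.

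The scale of analysis was log2(TPM + 1). Genes whose mean over the compared libraries reached 1 TPM entered limma 3.58.1 in R 4.3.3 (eBayes, trend and robust) with the replicate number as a fixed block. A call needed an adjusted p (Benjamini-Hochberg) under 0.05 and a 2-fold difference or more. The replicate numbers of the labels were taken to pair the samples, since own-number correlations lay between 0.65 and 0.78. In +VE minus +E, +V minus +E and +E minus NC, replicate 7 has no +E partner and adds nothing. The members and gene lists were chosen with earlier results of these data known. Named genes were the 10 largest rises and falls without overlap (predicted genes skipped), up to 4 called members per list (2 per direction), a fixed panel and the 5 largest interactions. Other genes were named after their values were seen. Values of some genes are not reported here. Gene positions came from GENCODE release 21 for mouse. The fits were tested on simulated data. Alternatives added after seeing the data were replicate numbers 4 to 6 only and removal of a length trend. Figures used matplotlib 3.10.9.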

Additional observations from a re-analysis of the deposited data

Results flagged for a closer look

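In groups of 7 libraries, a value was singled out where its gap to the nearest of the others was large for the range of the group. Chance flags about 1 in 20 groups, and 17 of 145 groups of named genes were singled out here, 14 of them by replicate 7 (6 in +V, 8 in NC). In NC, replicate 7 lay above the others for Crip2 (5.17 TPM), Duox2 (45.7 TPM), Duoxa2 (40.0 TPM), Lama5 (14.7 TPM) and Cdkn1a (287 TPM) and below them for Cyp3a11 (3.34 TPM), Fabp1 (512 TPM) and Hdac3 (99.6 TPM). In +V, replicate 7 lay above the others for Duox2 (12.4 TPM), Duoxa2 (11.1 TPM), Ces1f (83.9 TPM), Spred3 (5.98 TPM), Dpysl3 (32.2 TPM) and Cdkn1a (399.9 TPM). The others were Bst2 in +V replicate 6 (202 TPM, above) and, in NC replicate 4, Olfm4 (682 TPM, below) and Tead1 (7.14 TPM, below).

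The VPA step differed by the limma interaction term between cultures with and without EPZ6438 for 12 named genes. The interaction was negative for Bex4 (-2.0), Arxes2 (-1.07), Rbpms (-2.55), Tmeff1 (-1.38), Apcdd1 (-1.49), Amotl1 (-1.23), Dpysl5 (-1.45), Olfm4 (-3.29) and Aqp5 (-2.59). It was positive for Khdc1a (1.73), Ifitm1 (3.38) and Fn1 (2.53).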

How the results depend on the processing

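Of the 565 genes called, the count moved by more than 1.5 times with a pseudocount of 0.1 (863 called, 640 higher), a minimum mean of 5 TPM (320 called, 221 higher and 99 lower) and no minimum fold change (4373 called, 2843 higher and 1530 lower). With the pseudocount of 0.1, the count of +V minus +E was 740 and that of +E minus NC 720. Without the replicate block, 511 genes were called in +V minus NC and 73 in the interaction instead of 127. Leaving out each replicate number in turn gave 546 to 586 called genes, 403 to 436 higher and 143 to 167 lower. Of the 60 called genes that the naming rule gave, none changed sign in any setting, and 18 lost the call in at least 1. Genes named outside the rule, such as Pdk4 and Angptl4, are not in that count, and their losses stand beside their values. Signs changed only for genes that were not called. Replicate numbers 1 to 3 only gave -0.29 for Anxa1, -0.45 for Ly6a and -0.059 for Mki67, and numbers 4 to 7 only gave 0.41 for Fabp1, 0.030 for Yap1 and -0.0075 for Hdac2. With numbers 4 to 6 only, chosen after seeing the data, Fabp1 was 0.045, Yap1 0.13 and Ezh2 0.028. Hdac2 was -0.0027 with quantile normalization and -0.0025 with scaling to the 75th percentile. With single replicates left out, the values ran from -0.32 to 0.11 for Fabp1, from -0.042 to 0.14 for Mki67 and from -0.029 to 0.057 for Hdac2. The cause was not tested. TPM keeps no read number, so the precision of low genes is unknown.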
